A study of Mus musculus with 6 samples.

Results

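The mitochondrial ribosomal proteins were taken as every protein-coding gene whose symbol begins with Mrpl or Mrps followed by a digit, which gave 78 genes of the 55414 gene identifiers counted. Of these, 49 carry an Mrpl and 29 an Mrps symbol, and 5 pseudogenes with matching names were left out. RNA sequencing was done on poly-A-enriched RNA of adult mouse pancreatic acinar cells, the exocrine cells that make digestive enzymes, in 3 control and 3 Trip12 knockout libraries. Trip12 encodes an E3 ubiquitin ligase. Controls were Pdx1Cre;Trip12+/+ and knockouts Pdx1Cre;Trip12fl/fl, so that both groups carry the Cre transgene and neither was treated. The Pdx1 promoter drives Cre in the progenitors of the whole pancreatic epithelium, so other pancreatic epithelial cells would carry the deletion too. The labels call the libraries biological replicates 1 to 3 of each group and do not say whether each came from a separate animal. The p-values therefore measure the spread between these libraries.

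Mitochondria keep their own ribosome, which makes the few respiratory chain proteins encoded in mitochondrial DNA. Its 2 ribosomal RNAs are transcribed in the organelle, while all of its proteins are encoded in the nucleus, made in the cytosol and imported. The large subunit holds the peptidyl transferase centre and the small subunit reads the messenger RNA. Part of the proteins descend from the bacterial ribosome and part were gained in the mitochondrial lineage. Acinar cells are heavy protein producers whose secretory output depends on mitochondrial ATP.

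By the textbook composition of this ribosome, 51 of the genes encode large-subunit proteins, Mrps30 and Mrps18a among them despite their names, and 26 encode small-subunit proteins. Mrps36, in spite of its name, is a component of the 2-oxoglutarate dehydrogenase complex and was counted in neither subunit. All but 1 of the genes, 77, passed the filter on low counts. Mrpl53 had 0 counts in all 6 libraries, in the unstranded and in both stranded columns, and in the GENCODE M21 annotation it overlaps the gene model Gm42688, so the counts say nothing about its expression. Gene counts ran from 31019500 to 34041901 per library, and a tested gene of the family had between 13 and 990 counts in a library, with a median of 214.

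The labels were checked on the deleted gene and on markers. Trip12 had 14.4, 14.7 and 13.0 normalised CPM in the knockouts and 29.0, 22.3 and 26.4 in the controls, in replicate order. The log2 fold change of knockout over control was -0.89 (SE 0.14, edgeR's quasi-likelihood F test, Benjamini-Hochberg adjusted p 0.0256). Scaled by library totals instead of TMM factors, it was -0.49 (adjusted p 0.125, edgeR). All 14 acinar markers had counts in every library. The log2 fold change of knockout over control was below 0 for 13 of them and above 0 for 1 (median -0.43). Scaled by library totals, 8 were above 0 and 6 below (median 0.01). The digestive enzymes took 75.9%, 78.7% and 77.3% of gene counts in the controls and 73.8%, 73.4% and 73.8% in the knockouts. Of 18 leukocyte markers 15 had counts in every library, and their summed level was 279, 61.8 and 29.7 CPM in the controls and 185, 36.4 and 96.2 in the knockouts. All 12 stromal and endothelial markers were counted in every library, with sums of 148, 31.7 and 47.7 CPM against 166, 42.8 and 113. The 10 islet markers, also counted in every library, summed to 467, 460 and 359 CPM against 916, 661 and 246. For the 8 duct markers, likewise counted throughout, the sums were 202, 212 and 243 CPM against 276, 189 and 283. Of 6 adipocyte markers 3 had no count anywhere, and Adipoq, Plin1, Lep, Cidec and Retn had at most 3 counts in any library. Fabp4, the remaining adipocyte marker, was the only 1 tested (log2 fold change 0.79). The adipocyte sums were 8.85, 3.41 and 3.49 CPM in the controls against 17.2, 4.57 and 5.71 in the knockouts. Xist and Y-linked counts marked control replicates 2 and 3 as female and the other 4 libraries as male. The parts that sex, the other cell types and the enzyme share play in the values below were not tested, apart from the fit with sex as a covariate.

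Promoter sequences are shown for 5 genes, chosen by their levels or fold changes in the results below. Mrpl18 and Mrps24 were the 2 genes called lower when the replicate number entered the model. Mrpl52 and Mrps21 were the 2 highest per main-transcript length, and Mrpl55 had the largest positive fold change. Each sequence runs from 250 bases before to 50 bases after the annotated start. It is given 5′ to 3′ on the gene's own strand, from RefSeq on build GRCm38.p6. Capitals mark, on either strand, CCGGAA (the core bound by ETS factors such as GABPA), GCGC followed by any base and TGCGC (called the NRF1 motif here) and AAGATGG (YY1), the 3 factors classically linked to nuclear genes for mitochondria. The Mrpl18 window lies at chr17:12916042-12916341 (minus strand), that of Mrps24 at chr11:5707652-5707951 (minus) and that of Mrpl52 at chr14:54426659-54426958 (plus). The Mrps21 window lies at chr3:95871465-95871764 (minus) and that of Mrpl55 at chr11:59202236-59202535 (plus).
Mrpl18 promoter: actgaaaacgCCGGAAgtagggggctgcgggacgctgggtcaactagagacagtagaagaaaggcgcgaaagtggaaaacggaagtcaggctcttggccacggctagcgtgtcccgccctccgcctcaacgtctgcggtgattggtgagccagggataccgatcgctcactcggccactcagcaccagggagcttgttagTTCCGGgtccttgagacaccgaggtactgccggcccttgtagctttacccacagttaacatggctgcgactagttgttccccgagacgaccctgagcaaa
Mrps24 promoter: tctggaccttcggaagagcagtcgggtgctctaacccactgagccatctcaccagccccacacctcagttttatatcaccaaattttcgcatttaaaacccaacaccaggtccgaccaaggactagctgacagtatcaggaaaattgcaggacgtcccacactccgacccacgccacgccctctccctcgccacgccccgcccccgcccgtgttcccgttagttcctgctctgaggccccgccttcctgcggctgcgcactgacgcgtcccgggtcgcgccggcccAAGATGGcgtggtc
Mrpl52 promoter: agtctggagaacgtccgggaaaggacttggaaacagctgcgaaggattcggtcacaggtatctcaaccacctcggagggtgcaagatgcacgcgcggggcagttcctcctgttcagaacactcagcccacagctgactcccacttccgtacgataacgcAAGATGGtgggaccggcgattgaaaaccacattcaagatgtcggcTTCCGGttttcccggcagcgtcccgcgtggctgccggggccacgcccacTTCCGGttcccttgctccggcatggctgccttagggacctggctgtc
Mrps21 promoter: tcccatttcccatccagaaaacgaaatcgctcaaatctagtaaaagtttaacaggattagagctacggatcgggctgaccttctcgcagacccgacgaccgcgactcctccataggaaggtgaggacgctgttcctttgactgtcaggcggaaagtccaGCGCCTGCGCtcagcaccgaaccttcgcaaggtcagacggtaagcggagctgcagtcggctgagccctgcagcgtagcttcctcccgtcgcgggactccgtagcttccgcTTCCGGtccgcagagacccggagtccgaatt
Mrpl55 promoter: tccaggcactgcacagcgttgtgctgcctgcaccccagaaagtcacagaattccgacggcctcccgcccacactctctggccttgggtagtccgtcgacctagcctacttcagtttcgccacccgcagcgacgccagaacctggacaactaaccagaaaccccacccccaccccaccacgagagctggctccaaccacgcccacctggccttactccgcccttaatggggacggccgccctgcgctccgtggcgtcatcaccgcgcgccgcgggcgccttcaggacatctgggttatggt

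Of the 78 genes 69 had a promoter in the RefSeq table, with 75 promoters between them. CCGGAA was found in 43 of the 75 (57.3%), against 26.7% of 12307 promoters of tested protein-coding genes and 14.9% of all 32851 promoters of the same length. The NRF1 motif was found in 17.3% against 9.76% and 4.60%, and AAGATGG in 17.3% against 6.94% and 6.34%. At least 1 of the 3 motifs was present in 56 promoters (74.7%), against 37.5% of those of tested protein-coding genes, and in no promoter of the family did matches of different motifs overlap. For comparison, CCAAT was found in 40% against 37.3%, and TATAAA in 6.67% against 7.26%. The median GC content was 58.7% in the family and 60.7% over tested protein-coding genes. These are matches of letters and not shown to be bound sites. Of the promoters printed, Mrpl18 held CCGGAA on both strands, Mrpl52 CCGGAA and AAGATGG, Mrps21 CCGGAA and the NRF1 motif and Mrps24 AAGATGG near its end, while Mrpl55 held none of the 3. Among the 69 genes, the median log2 fold change of knockout over control was -0.04 in the 40 with CCGGAA and 0.01 in the 29 without it. It was -0.19 in the 13 with the NRF1 motif and 0.00 in the 56 without, and 0.19 in the 13 with AAGATGG and -0.04 in the 56 without. For the longer match AAGATGGC the median was 0.10 in 12 genes with it and -0.04 in 57 without. For the longer match CCGGAAGT it was 0.03 in 12 genes and -0.04 in 57. None of these differences was tested.

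Levels differed widely between the genes although their products, Mrps36 apart, are built into 1 particle. On a per-length scale (RPKM over the main transcript, mean of 6 libraries) the family ran from 0.497 to 38.2 with a median of 3.99, a range of 76.8-fold, and 42 of 77 lay within 2-fold of the median. The highest was Mrpl52, a mitochondria-specific large-subunit protein, with 33.5 ± 6.97 RPKM (SD, n = 3) in control and 42.8 ± 3.22 in knockout. Mrps21, counterpart of the bacterial S21 protein, had 33.1 ± 4.77 and 32.7 ± 1.04 RPKM. Mrps24, counterpart of bacterial S3 at the messenger RNA entry, had 32.5 ± 6.73 and 21.4 ± 3.12. The control values of these 3 differed by less than their spread, and Mrpl30, with 30.7 ± 6.24 and 25.9 ± 2.32 RPKM, and Mrpl42, with 28.0 ± 4.84 and 21.6 ± 2.11, lay within it too. At the low end stood Mrps25, a mitochondria-specific small-subunit protein, with 0.483 ± 0.0508 and 0.511 ± 0.0734 RPKM. Mrpl19 had 0.732 ± 0.0614 and 0.776 ± 0.0879 RPKM, and Mrps6 had 0.781 ± 0.291 and 0.726 ± 0.153. Mrpl47 and Mrpl1, the latter a protein of the mobile L1 stalk, followed at 1.25 ± 0.358 and 1.30 ± 0.166 RPKM in control and 0.993 ± 0.154 and 1.07 ± 0.237 in knockout. Mrpl19 and Mrps6 did not differ beyond their spread, nor did Mrpl47 and Mrpl1. Large-subunit genes had a median of 4.44 RPKM and small-subunit genes 3.14. The plot of levels per length shows all 77.

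**Figure D1:**
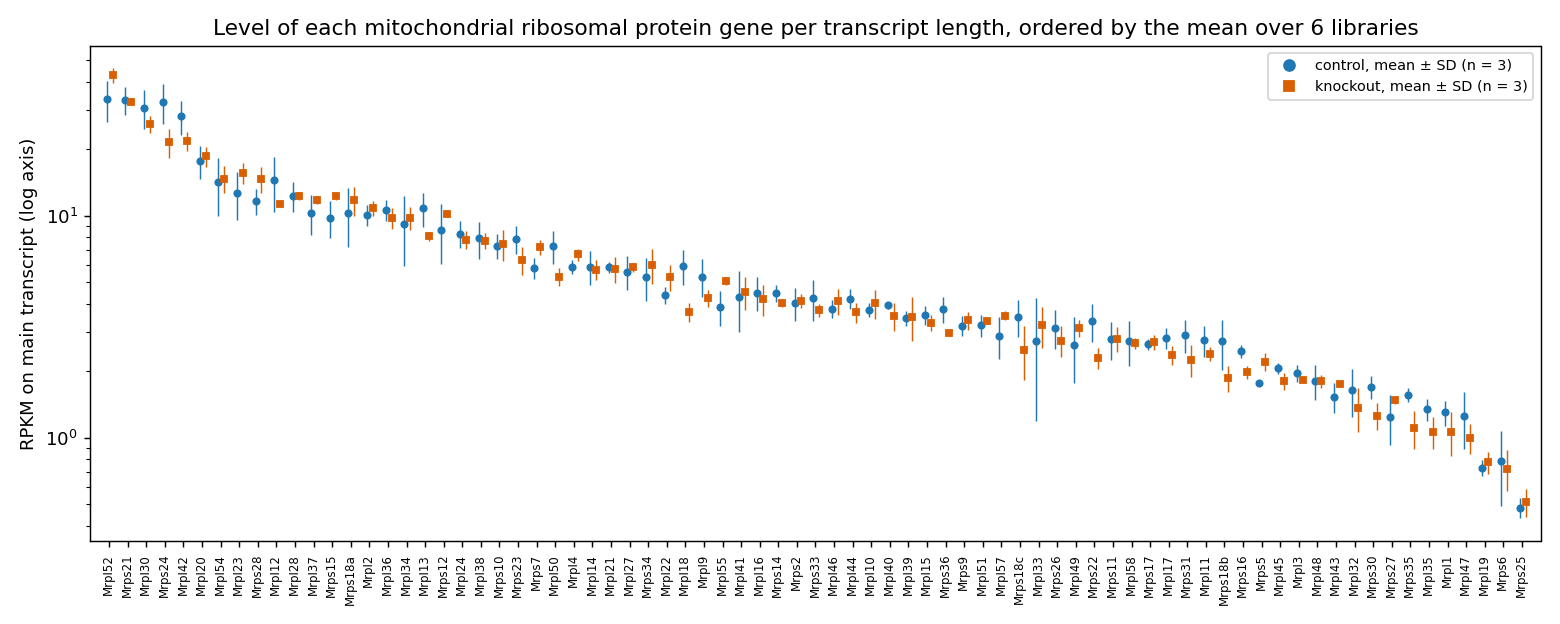
Level of each of the 77 tested genes in RPKM over its main transcript (log axis), as the mean ± SD of the 3 control (blue circles) and 3 knockout libraries (orange squares). The genes run from 0.497 to 38.2 RPKM. The libraries of the groups separate upward in 5 genes (6.49%, against 12% of all tested genes) and downward in 10 (13.0%, against 10.9%).

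Some levels depended on which count column was read. In the annotation 42 of the 78 genes overlap another gene and 26 a protein-coding one, over whole gene spans with introns included. Only reads where exons of the genes overlap are counted to neither in unstranded counts, so not all of these genes lost reads. For 20 genes the sum of both stranded columns exceeded the unstranded count by more than 10%. The ratio was highest for Mrpl47 (4.65, overlapping Actl6a and Ndufb5), followed by Mrpl43 (4.14, overlapping Twnk, the mitochondrial DNA helicase) and Mrps25 (3.43, overlapping Nr2c2), so that the places of Mrpl47 and Mrps25 at the low end are uncertain. Reads fell about equally on both strands, so the summed columns can also hold reads of the overlapping gene, and which gene the extra reads came from was not tested. The ranking also depended on the length used, with a Spearman correlation across the 77 genes of 0.837 between main-transcript and union-exon values. Over union-exon length (all exons of a gene merged) Mrps21 was highest (21.7 RPKM), ahead of Mrps24 (18.3) and Mrpl52 (14.4). On that scale Mrpl42 had rank 19 (4.48 RPKM), and Mrpl33 was lowest (0.194 RPKM).

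Knockout and control were then compared gene by gene. No gene of the family was called at an adjusted p under 0.05 by edgeR's quasi-likelihood test, in either direction, and DESeq2 and limma-voom also called 0. Over all 13115 tested genes 61 were called higher (0.465%) and 63 lower (0.48%). At an unadjusted p under 0.05, 2 genes of the family were higher (2.60%, against 8.45% of all genes) and 8 lower (10.4%, against 8.27%). The knockout libraries lay above all controls for 5 genes (6.49%, against 12% of all genes) and below all controls for 10 (13.0%, against 10.9%). Scaled by library totals instead, which raised the median of all genes by 0.41 on the log2 scale, the data gave other calls: 13 were called higher and 0 lower, against 11% and 0.587% of all genes. Since RNA was taken from bulk cells, fewer cells of a type and less RNA per cell cannot be told apart in any of these values.

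**Figure D2:**
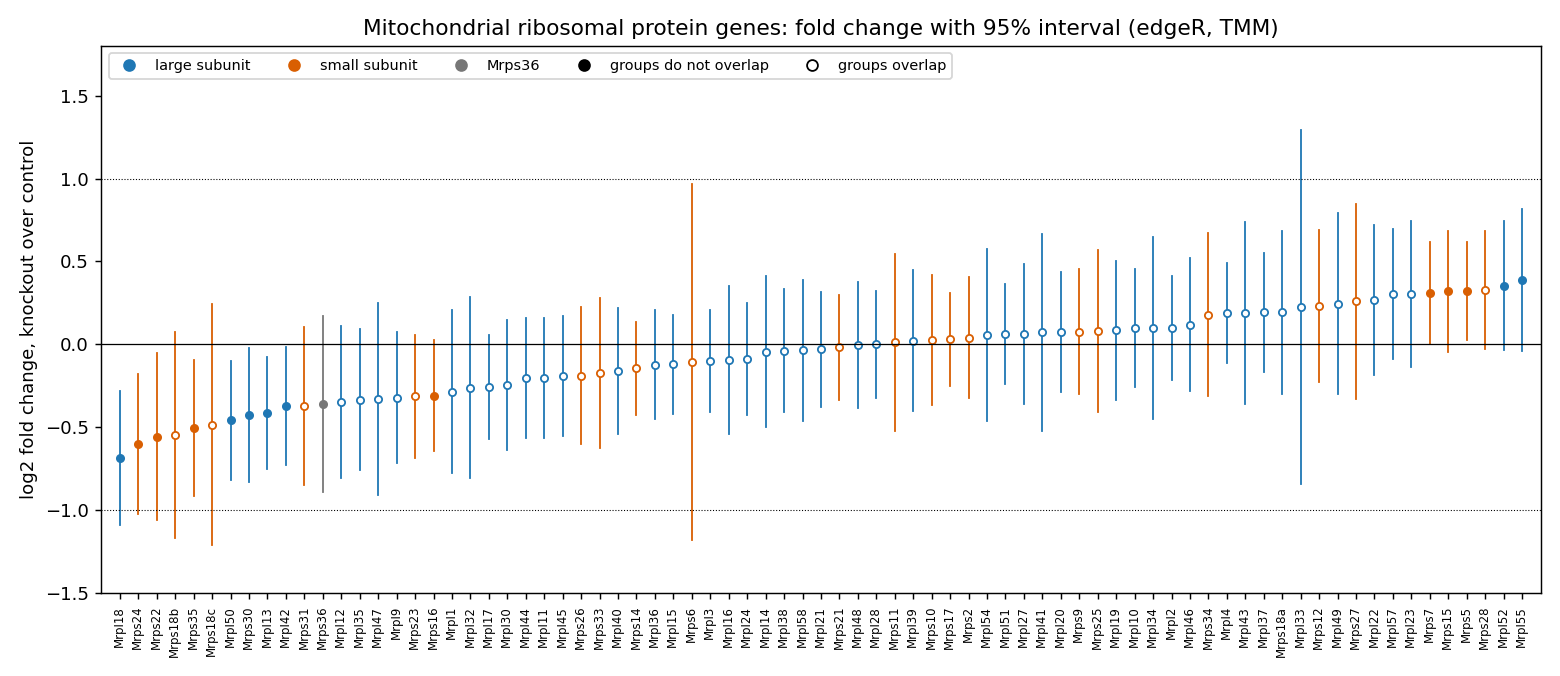
Log2 fold change of knockout over control for each of the 77 tested genes with its 95% interval, from edgeR with TMM factors. The values run from -0.69 to 0.39, and 10 of the intervals leave out 0. These are 2 genes above 0 (2.60%) and 8 below (10.4%). At an unadjusted p under 0.05 in edgeR, 8.45% of all tested genes were higher and 8.27% lower.

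The fold changes were small. Their median was -0.03, beside 0.02 over all tested genes, with 35 genes above 0 and 42 below, where 52.4% of all genes were above 0. The quartiles were -0.26 and 0.10 in the family and -0.23 and 0.30 over all genes. An absolute log2 fold change over 0.5 was seen in 6.49% of the family, in 24.3% of all tested genes and in 16.0% of the 8131 tested genes with a mean of 2 to 30 CPM. For 70 of 77 genes the 95% interval lay within a 2-fold change either way. The median SE of 0.18 was larger than the 0.08 that read counting alone would give, which leaves the rest to differences between libraries. With library totals the median was 0.40, beside 0.43 over all genes, and 69 of 77 genes were above 0.

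**Figure D3:**
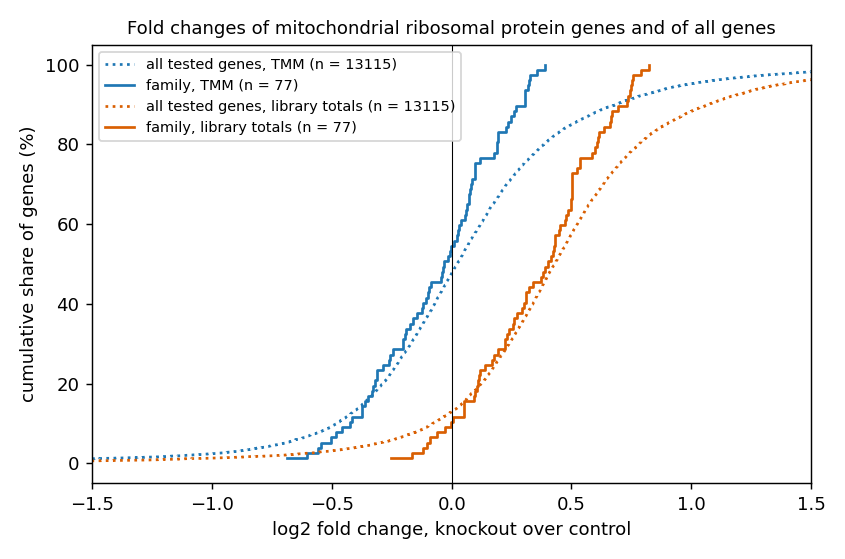
Cumulative share of genes by log2 fold change of knockout over control, for the family (solid) and all tested genes (dotted), with TMM factors (blue) or library totals (orange). The family's medians of -0.03 and 0.40 lie next to the all-gene medians of 0.02 and 0.43, and its curves are steeper.

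The subunits were then set side by side, with no test of a difference between them. The 50 tested large-subunit genes had a median log2 fold change of -0.03, with 22 above 0 and 28 below, and the 26 small-subunit genes 0.00, with 13 on each side. Genes of bacterial ancestry (46 tested) and of mitochondrial ancestry (30 tested) both had a median of -0.02. The lowest median among the subsets was -0.25, in the 10 small-subunit genes of mitochondrial ancestry, of which 7 were below 0 and 3 above, and none was called. The ratio of large-subunit to small-subunit normalised counts was 2.07, 2.14 and 2.04 in the controls and 2.06, 2.04 and 2.19 in the knockouts, and the groups overlapped.

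The lowest fold change belonged to Mrpl18, a large-subunit protein of the family that binds 5S ribosomal RNA in bacteria. It had 5.95, 8.54 and 7.20 CPM in the controls and 4.15, 4.34 and 4.96 in the knockouts. Each knockout was lower than each control. This amounted to a log2 fold change of -0.69 (SE 0.18, adjusted p 0.117, edgeR), and the adjusted p was 0.0441 in edgeR with the replicate number as a block. Mrpl18 overlaps Tcp1, a subunit of the cytosolic chaperonin whose start faces it within 1000 bases. With both stranded columns summed, Mrpl18 had 10.4, 13.6 and 13.5 CPM in the controls and 8.15, 8.31 and 9.60 in the knockouts, still without overlap, although this sum can hold reads of Tcp1. Tcp1 itself had 27.6, 30.5 and 39.0 CPM against 22.7, 29.1 and 29.4, which overlapped (log2 fold change -0.26, adjusted p 0.510, edgeR).

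Mrps24 came next, a gene that overlaps Urgcp in the annotation but has the same count with and without strand. Its levels were 24.6, 36.4 and 36.0 CPM in the controls and 21.0, 24.5 and 18.3 in the knockouts. Control replicate 1 lay next to the knockouts, at 24.6 CPM against a highest knockout value of 24.5. This amounted to a log2 fold change of -0.60 (SE 0.19, adjusted p 0.163 and, blocked, 0.0492, edgeR). In the blocked fit Mrpl18 and Mrps24 were the family's only calls. They made up 2.60% of the 77 genes, where that fit called 5.99% of all genes, 2.58% lower and 3.4% higher. Its pairing of libraries was read from these same data and is not in the labels. The direction of both genes was the same in all 18 alternative fits. Log2 fold changes ran from -0.84 to -0.25 for Mrpl18 and from -0.79 to -0.16 for Mrps24. The fit without control replicate 1 called both without a block, together with Mrpl12 (log2 fold change -0.59, adjusted p 0.0486, edgeR). These 3 are 3.90% of the 77, in a fit that called 1.88% of all genes lower and 461 genes in all, against 124 with all 6 libraries. Control replicate 1 was the only male control, so that fit set female controls against male knockouts. Sex and knockout cannot be told apart in it. With sex as a covariate the log2 fold change of Mrpl12 was 0.19. Without the filter on low counts Mrpl18 and Mrps24 were also called, 2.60% of the 77 against 1.45% of the 25772 genes then tested.

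Of the other genes with low values, Mrps22 and Mrps35 encode mitochondria-specific small-subunit proteins. Mrps22 had 3.18, 4.15 and 4.73 CPM in the controls and 2.95, 2.85 and 2.39 in the knockouts (log2 fold change -0.56, adjusted p 0.259, edgeR). Mrps35 had 6.02, 6.94 and 6.54 against 3.86, 5.57 and 4.32 CPM (log2 fold change -0.50, adjusted p 0.214, edgeR). In both the groups did not overlap. The remaining genes whose knockouts all lay below the controls were Mrpl50, Mrps30, Mrpl13, Mrpl42, Mrps36 and Mrps16, with log2 fold changes from -0.46 for Mrpl50 to -0.31 for Mrps16, of which Mrpl13, Mrpl42, Mrps36 and Mrps16 were above 0 with library totals. They are named for this separation after their values were seen.

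At the other end, Mrpl55, counterpart of bacterial L31, had 2.93, 4.23 and 3.74 CPM in the controls and 4.69, 4.60 and 4.96 in the knockouts (log2 fold change 0.39, adjusted p 0.346, edgeR). Mrpl52, the highest per main-transcript length, had 10.6, 15.8 and 15.6 against 17.0, 19.4 and 17.2 CPM (0.35, adjusted p 0.341, edgeR). Every knockout lay above every control in both. In the small subunit, Mrps5, counterpart of bacterial S5, had 7.97, 7.97 and 7.67 CPM against 10.9, 9.36 and 9.23 (0.32, adjusted p 0.267, edgeR). Mrps15, counterpart of bacterial S15, had 7.15, 10.0 and 10.3 against 11.5, 11.0 and 11.7 CPM (0.32, adjusted p 0.363, edgeR). Neither overlapped between groups, and Mrps7, also chosen for this after its values were seen, was the fifth such gene (log2 fold change 0.31, adjusted p 0.298, edgeR). Mrps28 had 7.81, 9.24 and 10.3 CPM against 9.89, 12.9 and 11.4, with overlap (0.33, adjusted p 0.340, edgeR). With library totals Mrpl55, Mrpl52, Mrps5, Mrps15, Mrps28 and Mrps7 were among the 13 called higher, with log2 fold changes of 0.73 to 0.82.

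The family holds 3 relatives of the bacterial S18 protein, of which Mrps18b and Mrps18c sit in the small subunit and Mrps18a in the large. Per main-transcript length they had means of 11.0 (Mrps18a), 2.28 (Mrps18b) and 2.99 RPKM (Mrps18c). Over union-exon length the means were 2.63, 1.18 and 1.77 RPKM in the same order. Mrps18a had 7.31, 12.2 and 7.71 CPM in the controls and 11.0, 8.62 and 11.5 in the knockouts (log2 fold change 0.19, adjusted p 0.722, edgeR). Mrps18b had 2.11, 3.57 and 3.09 against 1.72, 2.06 and 2.23 CPM (-0.55, adjusted p 0.366, edgeR). Mrps18c had 2.05, 2.71 and 1.93 against 1.93, 1.74 and 1.10 CPM (-0.48, adjusted p 0.502, edgeR). In all 3 the groups overlapped, and no difference between the 3 fold changes was tested.

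**Figure D4:**
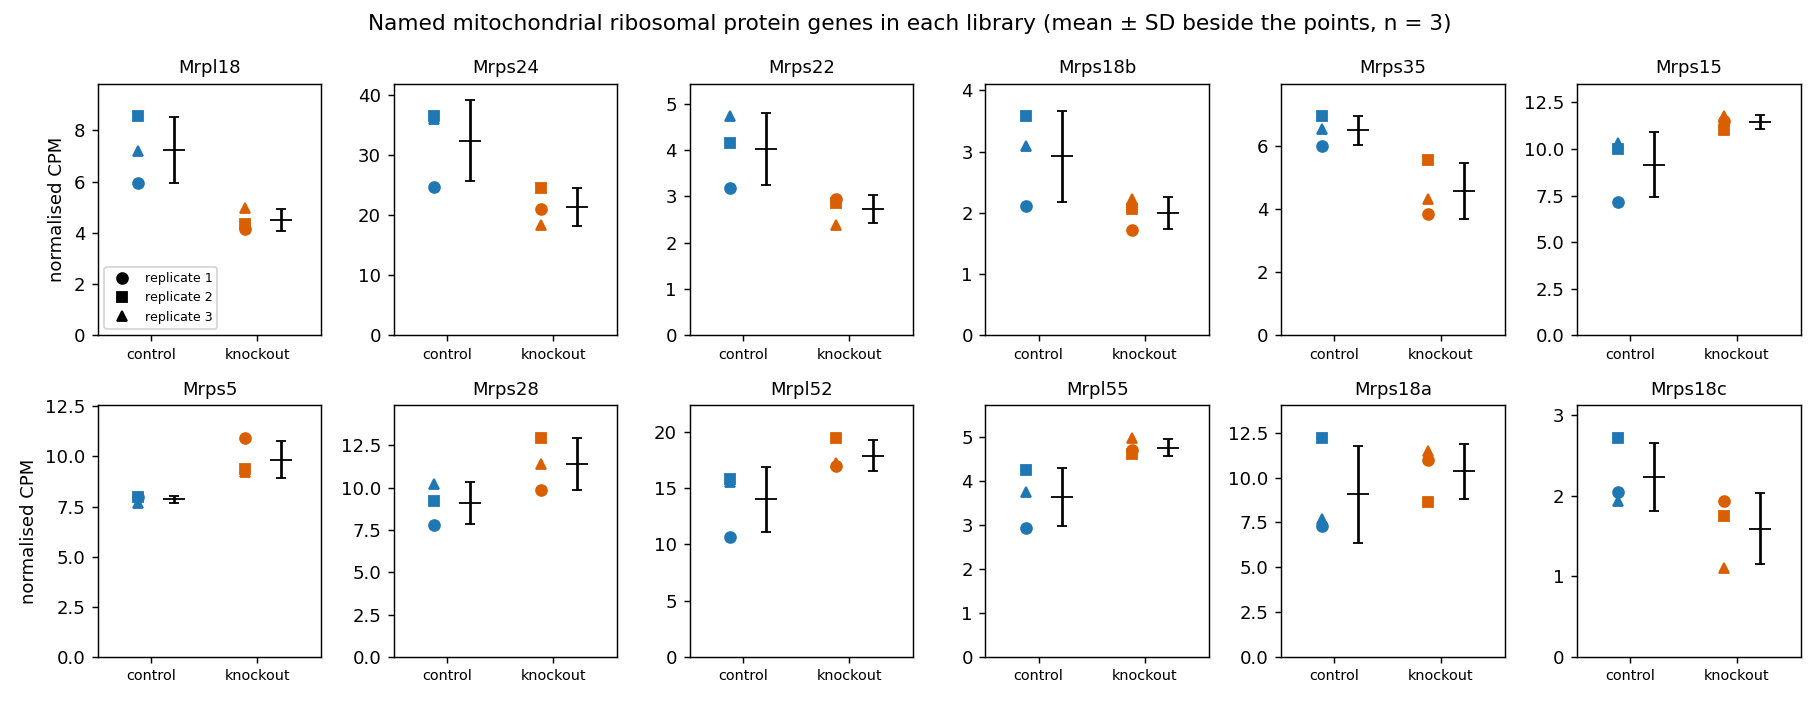
Normalised CPM (linear axes from 0) of 12 named genes in each library, with circles, squares and triangles for replicates 1 to 3 and the mean ± SD of each group of 3 beside the points. Mrpl18, Mrps24 (narrowly), Mrps22 and Mrps35 separate downward and Mrpl55, Mrpl52, Mrps5 and Mrps15 upward, while the 3 Mrps18 genes do not separate.

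Summed over the family, the outcome depended on the denominator. The family took 0.0562%, 0.0566% and 0.0542% of all gene counts in the controls and 0.0725%, 0.0716% and 0.0693% in the knockouts, with every knockout higher. Of the counts outside digestive enzymes they took 0.233%, 0.265% and 0.239% against 0.277%, 0.269% and 0.265%, where the lowest knockout fell just under control replicate 2. In TMM-normalised values the sums were 554, 721 and 670 CPM against 609, 640 and 598, and the groups overlapped fully. Control replicates 1 and 2 were the extremes of that scale, with 29 of 77 genes lowest in the first and 36 highest in the second. Across the 6 libraries, the correlation of each gene's log2 CPM with the mean of the others had a median of 0.53, from -0.60 to 0.94, and 43 of 77 were over 0.5. These points share library and scaling. Outside the family the mean log2 CPM was followed most closely by Slc35c2 (Pearson r 0.9996 over 6 libraries), Arhgef16 (0.9965) and Aup1 (0.9958), given as a description.

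**Figure D5:**
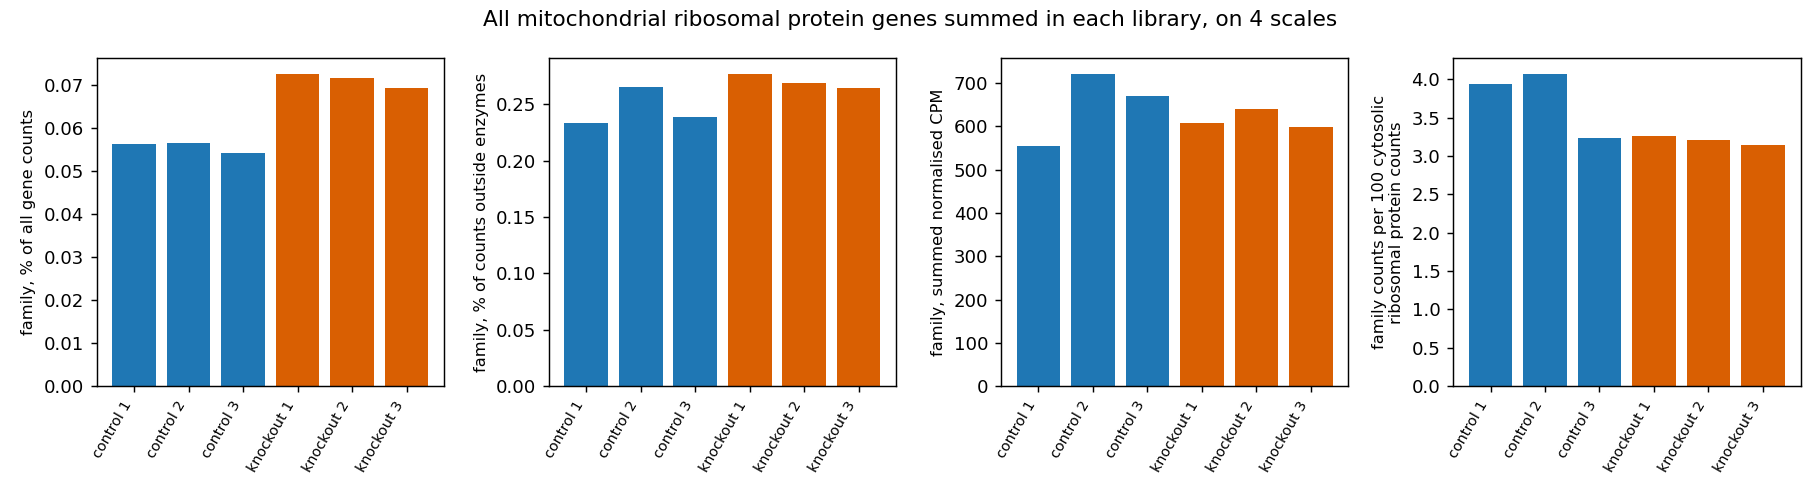
The family summed in each of the 6 libraries, as a share of all gene counts, as a share of counts outside digestive enzymes, in normalised CPM, and per 100 cytosolic ribosomal protein counts, with 1 bar for each library. The knockouts lie above the controls in the share of all counts and overlap them on the other 3 scales.

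Other genes of mitochondrial translation were given the same test. For comparison with the lists here and below, edgeR without the block called 0.465% of all tested genes higher and 0.48% lower. At an unadjusted p under 0.05 it had 8.45% higher and 8.27% lower. With the block edgeR called 3.4% higher and 2.58% lower. Of the 5 ribosomal subunits with other names, Dap3, Ptcd3, Chchd1, Aurkaip1 and Gadd45gip1, 2 were above 0 and 3 below (median log2 fold change -0.06), with 0 called by edgeR and 0 at an unadjusted p under 0.05. The 30 assembly factors and rRNA-modifying enzymes had 13 above and 17 below (median -0.06), and 16 tested initiation, elongation, release and rescue factors had 8 on each side (median -0.03). In both lists 0 were called by edgeR with or without the block, with 1 higher and 2 lower in the first and 2 and 2 in the second at an unadjusted p under 0.05. Of 17 mitochondrial tRNA synthetases 0 were called without the block (4 higher and 0 lower at an unadjusted p under 0.05), and with it 1 was called higher and 1 lower. Vars2, which charges valine tRNA, had 2.58, 4.44 and 3.09 CPM in the controls and 5.23, 5.71 and 5.98 in the knockouts, without overlap (log2 fold change 0.75, adjusted p 0.148 and, blocked, 0.0465, edgeR). Lars2, which charges leucine tRNA, had 130, 275 and 102 CPM against 87.3, 109 and 80.4, where control replicate 2 stood far above the rest and the groups overlapped (-0.87, adjusted p 0.299 and, blocked, 0.0491, edgeR).

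Transcription and copying of mitochondrial DNA (11 genes tested, median log2 fold change -0.09) and the nuclear regulators of mitochondrial biogenesis (9 genes, median -0.11) likewise had 0 calls in edgeR without the block, with 0 higher and 1 lower in the first and 1 and 0 in the second at an unadjusted p under 0.05. With it Myc was called higher, at 19.7, 17.8 and 40.6 CPM in the controls and 25.6, 25.6 and 64.6 in the knockouts, which is higher within each numbered pair while the groups overlapped (log2 fold change 0.57, adjusted p 0.665 and, blocked, 0.0440, edgeR). Among 16 abundant mitochondrial proteins, 8 on each side of 0 with a median of -0.02, Lonp1, the matrix protease, had 24.9, 25.0 and 25.3 CPM against 36.8, 34.9 and 33.7, a gap far wider than the spread in either group. Its log2 fold change was 0.49 (adjusted p 0.0948 and, blocked, 0.0491, edgeR). With library totals the medians of these lists ran from 0.30 for the regulators to 0.46 for the tRNA synthetases, around the shift of all genes.

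The RNAs encoded in mitochondrial DNA were measured in poly-A-enriched libraries, which catch mitochondrial ribosomal RNA poorly. The 12S ribosomal RNA, mt-Rnr1, had 43.2, 48.0 and 60.4 CPM in the controls and 35.5, 53.8 and 28.3 in the knockouts (log2 fold change -0.37, adjusted p 0.507, edgeR). The 16S ribosomal RNA, mt-Rnr2, had 58.8, 58.2 and 59.2 against 55.9, 63.9 and 61.4 CPM (0.04, adjusted p 0.920, edgeR). Both overlapped between groups. Of the 13 mitochondrial messenger RNAs 11 were below 0 with a median of -0.27, and 0 were called by edgeR, with 3 lower at an unadjusted p under 0.05, while with library totals 9 were above 0 with a median of 0.14. The family's sum per 100 mitochondrial messenger RNA counts was 6.07, 9.13 and 8.20 in the controls and 8.52, 10.4 and 8.49 in the knockouts, with overlap. Per 100 counts of cytosolic ribosomal proteins it was 3.94, 4.07 and 3.24 against 3.26, 3.21 and 3.15, where only control replicate 3 lay among the knockouts. Of 76 tested cytosolic ribosomal protein genes 57 were above 0 with a median log2 fold change of 0.18, and edgeR called 1 higher.

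Some of these genes start close to the start of a gene on the other strand. In the annotation 33 had a protein-coding gene starting head to head within 1000 bases, including pairs whose transcribed regions overlap. The share over all genes was not counted, and whether a pair shares a promoter was not tested. In the 27 pairs with both genes tested, 16 had fold changes of the same sign. Among the partners 1 was called without the block, in a fit that called 0.945% of all genes. Eme2, a subunit of a DNA endonuclease that starts next to Mrps34, had 1.20, 1.64 and 1.27 CPM in the controls and 4.96, 5.97 and 3.70 in the knockouts (log2 fold change 1.83, adjusted p 0.0188, edgeR). Mrps34 itself had a log2 fold change of 0.18 (adjusted p 0.752, edgeR). With the block Ppp1r10, the partner of Mrps18b, was also called higher (0.58, adjusted p 0.130 and, blocked, 0.0385, edgeR). The blocked fit called 5.99% of all genes. Mrpl46 and Mrps11 are each other's partner, with log2 fold changes of 0.12 and 0.01.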

How the data were processed

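Deposited tables held raw whole-number counts per Ensembl gene for each library, made by the authors with STAR 2.7.10a on GRCm39, per the submitters' processing notes, in 1 unstranded and 2 stranded columns, of which the unstranded was used. Symbols, classes, lengths, overlaps and head-to-head starts came from GENCODE M21 (GRCm38), which held 94.1% of the identifiers. No coordinates are given apart from those of the printed promoter windows, which are on GRCm38.p6. The annotation release behind the counts is not given in the sources used here. Genes passing filterByExpr (13115) were tested with edgeR 4.0.16 in R 4.3.3 (TMM, robust quasi-likelihood F test, Benjamini-Hochberg adjustment over all genes, called under 0.05). Alternatives used DESeq2 1.42.0 and limma 3.58.1. CPM used TMM library sizes, and log2 CPM a prior count of 2. The SE was the fold change over the square root of F. Tests were tried on simulated data.

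Named genes were the family's calls in either fit, the 5 largest fold changes each way, the 5 highest and lowest per length, the Mrps18 genes, untested genes, list genes called in mitochondrial lists, both mitochondrial rRNAs and the 3 genes most like the family's mean. Called genes of the cell marker and enzyme lists are not described. Subunit and ancestry were assigned from textbook composition. The genes and lists were chosen with earlier results of these data known. Same-numbered libraries deviated together, with correlations of 0.63, 0.455 and 0.285, where differently numbered ones had -0.496 to 0.21. The replicate numbers were taken as pairs from these data alone, and their meaning is not in the labels. The blocked p-values come from the same data and so do not rest on a known pairing. Replicates 2 and 3 each pair a female control with a male knockout.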

Additional observations from a re-analysis of the deposited data

How the results depend on the processing

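Over 18 alternative fits, 15 of 27 named genes of the family kept their direction and 12 did not, none of them called in a fit that turned it. With library totals, which raised the median of all genes, the log2 fold change became 0.14 for Mrpl1, 0.10 for Mrpl12, 0.0049 for Mrpl13, 0.19 for Mrpl30, 0.051 for Mrpl42, 0.12 for Mrpl47, 0.11 for Mrps16, 0.41 for Mrps21, 0.052 for Mrps36 and 0.32 for Mrps6. With sex as a covariate it became 0.19 for Mrpl12, 0.13 for Mrpl30, 0.24 for Mrpl47, 0.24 for Mrps21 and 0.28 for Mrps6. Mrpl19 was at -0.095 with forward-strand counts, Mrps21 at 0.062 and Mrps6 at 0.14 with reverse-strand counts, and Mrps21 at 0.0022 where each library had to hold 10 counts or more. With 1 library left out, Mrps21 ran from -0.16 to 0.059, Mrps25 from -0.034 to 0.18 and Mrps6 from -0.29 to 0.24. Calls higher moved from 0 to 13 with library totals. Calls lower moved from 0 to 2 with the replicate block and to 2 without the filter on low counts (Mrpl18 and Mrps24 in both). With 1 library left out at a time they ranged from 0 to 3, the 3 without control replicate 1, the only male control. Over all genes these fits called 785 with the block, 850 without the filter and 20 to 461 with 1 library left out, against 124. The block changed no other call of the family. The median log2 fold change, -0.03, was 0.40 with library totals (0.43 over all genes), 0.14 with sex as a covariate (0.00 over all genes), which rests on 1 male control, and -0.14 to 0.01 with 1 library left out. The cause of these shifts was not tested, except that library totals raised the median of all genes. The share of counts outside digestive enzymes kept a higher mean in knockout, by 0.0180 to 0.0339 percentage points, with 1 library left out. Trip12 had a log2 fold change of -0.49 with library totals (adjusted p 0.125, edgeR) and -1.05 with sex as a covariate (adjusted p 0.0941, edgeR), and of -0.98 to -0.82 with 1 library left out, where its call was lost in 5 of 6 fits. With 3 libraries a group and a median of 214 counts, the median SE was 0.18, and changes that are small beside it were not detectable. Changes well above the SE could also go uncalled without the block. Mrpl18, at -0.69 with an SE of 0.18, had an adjusted p of 0.117 (edgeR).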
